A study of Solanum lycopersicum with 9 samples.

Results

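H3K9me2 peak lists of wild-type (WT) and *ddm1* tomato leaves were compared along the 12 chromosomes. Both genotypes were *Solanum lycopersicum* of cultivar M82, and *ddm1* was the *Slddm1a/Slddm1b* double mutant, which carries mutations in both tomato copies of the chromatin remodeller DDM1. Chromatin came from the fourth leaf, at a plant age of 1 month, and each genotype had 1 H3K9me2 list out of the 9 lists of the series. The number of plants behind a list was not stated, and the study describes biological replicates that could not be told apart in these lists. The members were the peaks of 700 bp or longer, because the WT list held no shorter peak whereas the *ddm1* list started at 500 bp. This left 9767 WT peaks, all that were deposited, and 4015 of the 7361 *ddm1* peaks. Together they made up 13782 of the 266074 peaks that the 9 lists hold on these chromosomes. With a single list per genotype there was no error between plants and no test was possible. All intervals below are 95% intervals for counting error only and treat peaks as independent.

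H3K9me2 is a repressive modification of histone H3 that plants place mainly on transposable elements. In *Arabidopsis thaliana* it is written by SUVH methyltransferases that read DNA methylation in the CHG context, and it is read in turn by CMT3, which maintains that methylation, so that both marks sustain each other. DDM1 opens compact nucleosomes to the DNA methyltransferases, and its loss in *Arabidopsis* removes both marks from many transposons. Tomato chromosomes carry their genes mostly near the ends, around a large, repeat-rich centre that forms constitutive heterochromatin. Gene names are not given, since no annotation in the coordinates of these lists (assembly M82 V1.0) was used here.

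Peaks of H3K9me2 covered less of every chromosome in *ddm1*, and most of those called in *ddm1* lay outside the WT peaks. WT peaks covered 10.9 Mb, or 1.36% of the 802 Mb spanned by peaks, and *ddm1* peaks covered 4.53 Mb, or 0.564%, which is 0.414 times the WT length. The ratio of peak numbers was 0.411, and with WT cut to its 4015 strongest peaks the ratio of covered lengths was 0.936. Of the 9767 WT peaks, 1090 shared at least 1 bp with a *ddm1* peak and are called kept (11.2%, interval 10.6 to 11.8), while 8677 are called lost. Among the 4015 strongest WT peaks the kept share was 17.3%. Of the 4015 *ddm1* peaks, 2925 lay outside every WT peak and are called gained (72.9%, 71.5 to 74.2). Lost and gained describe the lists: a region counted as lost had no *ddm1* call of this length. A *ddm1* peak shorter than 700 bp lay at 450 of the lost WT peaks (5.19%, 4.74 to 5.67). Only 951 kb was covered in both genotypes, 8.71% of the WT length and 21.0% of the *ddm1* length.

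Above the common minimum length the lists had like widths and different enrichment. The median width was 973 bp in WT (964 to 983) and 972 bp in *ddm1* (959 to 984), and the longest peaks had 3748 and 3603 bp. Peaks of 2000 bp or more made up 5.48% of the WT and 6.03% of the *ddm1* peaks. As deposited, with its peaks under 700 bp, the *ddm1* list had a median of 731 bp (723 to 740) and 3.29% of peaks of 2000 bp or more. The median fold enrichment over the local background, as the authors' peak caller gives it, was 2.12 in WT and 2.47 in *ddm1*. At the same −log10 p the *ddm1* fold was also higher: in 5 classes of −log10 p between 3 and 6, its median was 1.10 to 1.12 times that of WT. No read totals were used, and the part of depth in the lower number of *ddm1* peaks was not tested.

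The loss was first followed chromosome by chromosome. The covered length fell on 12 of 12 chromosomes, and the ratio of *ddm1* to WT ran from 0.317 on chromosome 10 to 0.561 on chromosome 6. Chromosome 10 went from 841 peaks in WT to 273 in *ddm1*, and chromosome 6 from 578 to 330. In WT the density lay in a narrow range, from 10.1 peaks per Mb on chromosome 2 to 13.5 on chromosome 5. In *ddm1* it lay between 3.79 per Mb on chromosome 1 and 6.31 on chromosome 6, a 1.67-fold range against 1.34-fold in WT. The order of the chromosomes was only loosely held: Spearman's rho between the WT and *ddm1* densities was 0.33 over 12 chromosomes, as a description of 2 lists that share the chromosome lengths.

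Chromosome 6 kept the most and chromosome 10 the least. On chromosome 6, 100 of 578 WT peaks were kept (17.3%, 14.4 to 20.6), and on chromosome 10, 63 of 841 (7.49%, 5.90 to 9.47). Both intervals leave out the share over all chromosomes, 11.2%. Chromosome 2, with 13.8% (11.2 to 16.97), lay at the border, and the intervals of the other 9 chromosomes contain the overall share. The number of gained peaks per 100 lost peaks was highest on chromosome 6 (48.1) and lowest on chromosome 10 (26.99). This ratio is not independent of the kept share, since keeping more peaks leaves fewer lost ones. Chromosome 6 had the fewest lost peaks (478), and its 230 gained peaks lay below the chromosome median of 247. Gained peaks took 69.7% of the *ddm1* peaks on chromosome 6 and 77.6% (73.1 to 81.5) on chromosome 3. Chromosome 3 was the only one whose interval left out the overall share of 72.9%.

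**Figure D1:**
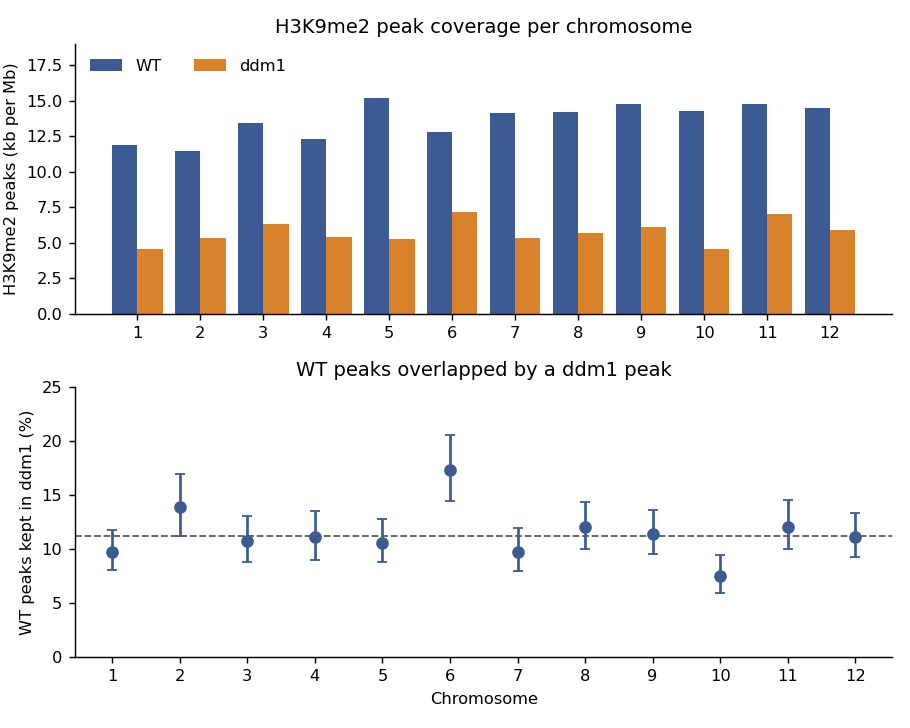
Top, length covered by H3K9me2 peaks in kb per Mb on each of the 12 chromosomes in WT (blue) and *ddm1* (orange). Bottom, share of WT peaks overlapped by a *ddm1* peak, with 95% Wilson intervals and the overall share of 11.2% as a dashed line: chromosome 6 (17.3%) lies above it and chromosome 10 (7.49%) below.

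Each chromosome was then divided at its middle, which is not the position of the centromere. In all 24 resulting segments, called peaks covered less in *ddm1*. The ratio of covered lengths was lowest in the first segment of chromosome 1, where 645 kb in WT became 178 kb in *ddm1* (0.276), and highest in the second segment of chromosome 2, where 177 kb became 120 kb (0.679). These segments also differed in what they kept, with 6.69% of 583 WT peaks in the former and 25.5% of 145 in the latter. The second segment of chromosome 2 was the one with the fewest WT peaks.

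From chromosome end to middle, the WT profile rose steeply and the *ddm1* profile was almost flat. In the outermost 10% of the way from an end to the middle, WT had 3.19 peaks per Mb and *ddm1* had 4.08. In the innermost 10%, WT had 14.0 per Mb and *ddm1* had 4.10. The ratio of the densest to the sparsest of the 10 bins was 4.67 in WT and 1.51 in *ddm1*. WT reached its plateau between 30% and 40% of the way, with 14.1 peaks per Mb, whereas *ddm1* was densest between 20% and 30%, with 6.15 per Mb.

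The outermost bin was the only one in which *ddm1* covered more than WT. The ratio of covered lengths there was 1.36, and it fell to 0.766 in the next bin, 0.566 in the third and 0.273 in the innermost. The segments were not alike at the ends: in 3 of 24 *ddm1* peaks covered less in the outermost bin, with ratios between 0.324 and 5.93. In each of the 3 innermost bins all 24 segments were covered less, and in the innermost one the ratios lay between 0.128 and 0.520. In Mb from the end, the ratio was 1.34 below 2 Mb, 0.961 from 2 to 5 Mb, 0.628 from 5 to 10 Mb, 0.3796 from 10 to 20 Mb and 0.300 beyond 20 Mb.

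**Figure D2:**
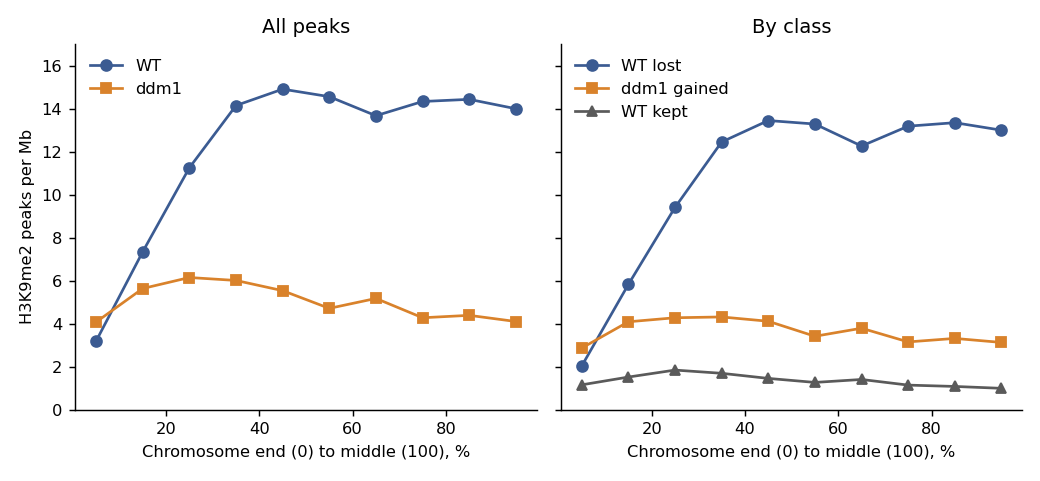
H3K9me2 peaks per Mb in 10 bins from the chromosome end (0%) to the chromosome middle (100%), summed over the 24 segments. Left, all peaks of WT and *ddm1*: WT climbs from 3.19 to 14.0 per Mb while *ddm1* stays between 4.08 and 6.15. Right, the same for WT lost, *ddm1* gained and WT kept peaks.

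Split by class, the rise of the WT profile was made of lost peaks. Lost WT peaks went from 2.03 per Mb in the outermost to 12.99 per Mb in the innermost bin. Gained *ddm1* peaks varied between 2.87 and 4.31 per Mb, and kept WT peaks between 0.998 and 1.85 per Mb. As a result, the share of peaks in the central 50% of the chromosomes was 58.3% (57.3 to 59.2) in WT and 45.3% (43.7 to 46.8) in *ddm1*, a difference of −13.0 percentage points (−14.8 to −11.2). It was 60.1% for lost, 43.5% for kept and 46.1% for gained peaks. The share in the centre fell on 11 of 12 chromosomes. The deepest fall was on chromosome 8, from 55.2% to 26.96%, and the exception was chromosome 2, where it was 60.1% in WT and 67.2% in *ddm1*. Cutting both lists to the same number of peaks, with the strongest retained, gave a difference of −10.6 points.

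WT peaks near the ends were kept more often. In the outermost bin 93 of 256 WT peaks were kept (36.3%, 30.7 to 42.4), in the next one 20.7%, and in the innermost 80 of 1122 (7.13%, 5.77 to 8.79), against 11.2% over all. At the very tips, within 100 kb of an end, 20 of 45 WT peaks were kept (44.4%, 30.9 to 58.8), and 13 of the 24 tips held a kept peak. The far end of a chromosome was taken as the last peak end in any list, the H3K9me2 lists included. Peaks at the far tips are therefore partly built in. The longest kept peak lay at the far tip of chromosome 1, from 92839594 to 92843341 (3748 bp, fold 1.69), where *ddm1* H3K9me2 covered 1891 bp. At the near tip of chromosome 2, 3 WT peaks over 5.61 kb faced 3 *ddm1* peaks over 6.07 kb, and all were shared. At 5 tips there were WT peaks and no *ddm1* peak (the starts of chromosomes 1, 4 and 6 and the ends of 9 and 10), and at the ends of chromosomes 5 and 11 it was the reverse.

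Wider and stronger WT peaks were also kept more often. The kept share rose from 6.79% (5.82 to 7.91) of the WT peaks of less than 800 bp to 27.7% (24.0 to 31.6) of those of 2000 bp or more. A wide peak meets others more easily. With the stricter rule that the midpoint of the WT peak lies inside a *ddm1* peak, the overall share was 8.31%. That share was not split by width, so the part of the overlap rule in the rise with width was not tested. Along −log10 p, the kept share was 4.38% in the weakest 25% of the WT peaks and 21.0% in the strongest 25%. Of the 100 strongest WT peaks 42 were kept (42.0%, 32.8 to 51.8), so the majority was lost even there. WT peaks were somewhat stronger at the ends, with a median fold of 2.33 in the outermost and 2.06 in the innermost bin, and location and strength were therefore set against each other. In the strongest 25%, 27.6% (25.04 to 30.3) of the WT peaks in the outer 50% of the chromosomes were kept and 15.6% (13.7 to 17.6) of those in the central 50%. In the weakest 25% the shares were 5.08% (3.86 to 6.68) and 3.94% (3.07 to 5.05), with overlapping intervals.

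**Figure D3:**
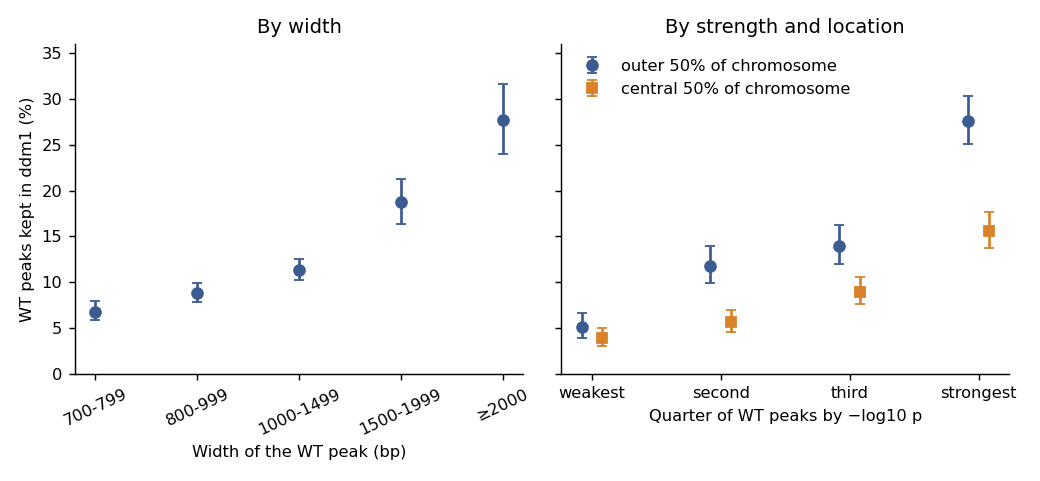
Share of WT H3K9me2 peaks kept in *ddm1*, with 95% Wilson intervals, by the width of the WT peak (left) and by its −log10 p in 4 equal classes, for the outer and the central 50% of the chromosomes (right). The share climbs from 6.79% to 27.7% with width, and the outer peaks lie above the central ones in the 3 stronger classes.

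The kept share also varied with the distance to active chromatin, within the centre as well as near the ends. H3K9ac is a mark of active genes, and its WT list was used as a stand-in for them. Of the WT H3K9me2 peaks within 5 kb of a WT H3K9ac peak, 411 of 1316 were kept (31.2%, 28.8 to 33.8). The kept share was 13.4% (12.1 to 14.9) from 5 to 20 kb, 5.89% from 20 to 100 kb and 5.96% beyond 100 kb. Within 5 kb it was 27.6% (24.0 to 31.6) in the central 50% of the chromosomes and 33.7% (30.5 to 37.1) in the outer 50%. It was also high in the weakest 25% of the WT peaks, at 18.1% (13.3 to 24.2) within 5 kb against 2.20% (1.41 to 3.41) from 20 to 100 kb. The median distance to WT H3K9ac was 42.5 kb (40.5 to 44.7) for lost WT peaks, 8.91 kb (7.64 to 10.2) for kept and 8.82 kb (8.03 to 9.87) for gained ones. Peaks within 5 kb made up 13.5% of the WT list and 38.3% of the *ddm1* list, where 26.4% of the chromosome span lies that close to WT H3K9ac.

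Kept peaks also lay next to each other. After a kept WT peak, the next WT peak was kept in 280 of 1084 cases (25.8%, 23.3 to 28.5), and after a lost one in 803 of 8671 (9.26%, 8.67 to 9.89). The contrast was largest between peaks no more than 2 kb apart, with 48.9% (38.8 to 59.0) of 90 cases against 8.07% (6.07 to 10.7) of 545. It was smaller but present at 50 to 200 kb, with 19.7% (16.0 to 24.1) against 9.34% (8.39 to 10.4). Beyond 200 kb both shares were higher, with 31.2% (24.0 to 39.3) of 138 cases against 15.8% (13.2 to 18.8) of 652. The contrast therefore did not fall steadily with distance. In the *ddm1* list it was weaker: the next peak was shared in 33.2% (30.5 to 36.1) of cases after a shared peak and in 24.7% (23.2 to 26.3) after another. Whether peaks so close are pieces of 1 enriched region was not tested, and neighbours share their location, with which the kept share varied.

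The spacing of the peaks was compared next. The median gap from a peak to the next was 43.3 kb in WT (41.9 to 44.7) and 98.8 kb in *ddm1* (92.9 to 105), and it was longer in *ddm1* on 12 of 12 chromosomes. The ratio was lowest on chromosome 6 (42.1 and 68.3 kb) and highest on chromosome 10 (41.2 and 119 kb). The gap depended on which peaks were listed. With the lists as deposited the ratio of the medians was 1.16 (1.10 to 1.23) instead of 2.28 (2.13 to 2.44). When WT was cut to its 4015 strongest peaks, its median gap was 109 kb (104 to 116), above that of *ddm1*, and 55.9% instead of 58.3% of its peaks were central. The longest stretch without a peak was 4.66 Mb in WT, on chromosome 1, and 3.15 Mb in *ddm1*, on chromosome 8. Of the 8025 windows of 100 kb, 37.2% held no WT peak and 65.8% held no *ddm1* peak.

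Short gaps had an uneven distribution in both genotypes. In WT, 513 gaps were at most 1 kb, then only 24 fell between 2 and 3 kb and 25 between 3 and 4 kb, and 147 fell between 6 and 7 kb. In *ddm1* the same bins held 155, 6, 13 and 55 gaps. Peaks were thus either close neighbours or more than about 5 kb apart, with few in between. The H3K27me1 lists of the same leaves had a shallower dip, with 44 gaps between 3 and 4 kb and 88 between 6 and 7 kb in WT. Whether the dip belongs to the chromatin or to the way peaks are called was not tested.

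**Figure D4:**
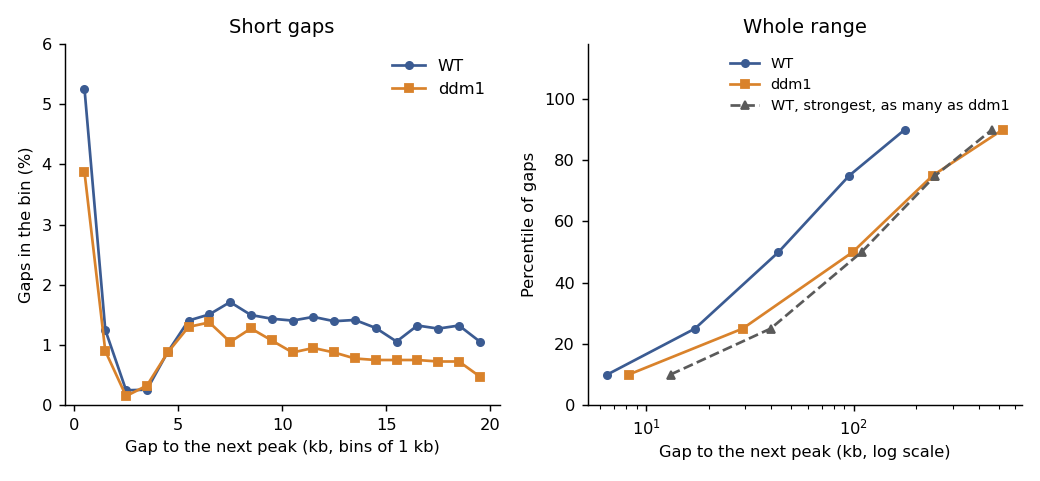
Left, share of the gaps between neighbouring H3K9me2 peaks in bins of 1 kb up to 20 kb: both genotypes have a first bin of many gaps (5.26% in WT, 3.87% in *ddm1*) and a dip between 2 and 4 kb. Right, the 10th, 25th, 50th, 75th and 90th percentiles of all gaps on a log scale for WT, *ddm1* and the 4015 strongest WT peaks, whose 10th percentile (13.1 kb) lies above that of *ddm1* (8.23 kb).

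Clusters, defined as 3 or more peaks joined by gaps of at most 10 kb, were rare. WT had 177 clusters with 565 peaks (5.78% of its peaks, 5.34 to 6.27) and *ddm1* had 49 with 152 peaks (3.79%, 3.24 to 4.42). The lower share in *ddm1* turned at equal number: the 4015 strongest WT peaks had 1.49% in clusters, so *ddm1* was then higher by 2.29 percentage points. It also turned at a q of 0.01 or lower and without a common minimum length. With both lists cut at 1000 bp the difference was 0.377 points (−0.254 to 1.14), an interval that includes no difference. No direction was therefore established for clustering. In counts per 100 kb window the variance was 1.37 times the mean in WT, 1.398 times in *ddm1* and 1.22 times in the cut WT list.

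Of the 565 clustered WT peaks 74 were kept (13.1%, 10.6 to 16.1), an interval that contains the 11.2% over all and overlaps that of the peaks with no neighbour within 10 kb (10.8%, 10.1 to 11.6). Of the 177 WT clusters, 149 of which had 3 peaks, 127 had no kept peak and 3 had every peak kept. The one with the most peaks was on chromosome 7 from 42059140 to 42093217, with 6 peaks over 6.64 kb and a median fold of 2.21. The next were 5 peaks on chromosome 7 from 48233277 to 48254758 and 5 on chromosome 4 from 13152527 to 13175801. The clusters on chromosome 7 held no *ddm1* peak, and that on chromosome 4 held 1. A cluster of 5 peaks near the start of chromosome 9, from 1589095 to 1612924, had 3 of them kept. In *ddm1* no cluster had more than 4 peaks. The shortest of these were on chromosome 4 from 4992037 to 5007788 and, close to each other on chromosome 3, from 52443113 to 52462693 and from 52476392 to 52494184. None of these 3 had a WT peak within it. Of the 49 *ddm1* clusters, 15 held no WT peak (30.6%, 19.5 to 44.5). Chromosome 12 had no *ddm1* cluster, while 5.12% of its WT peaks were clustered.

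Most gained peaks did not border a WT peak. Their median distance to the nearest WT peak was 26.4 kb (24.9 to 28.0), 181 of 2925 lay within 1 kb of one (6.19%, 5.37 to 7.12) and 24.2% (22.7 to 25.8) within 10 kb. WT had 12.2 peaks per Mb, and the share of the chromosome span this close to a WT peak was not computed. Whether gained peaks lay nearer to WT peaks than other positions was therefore not tested. By width, the gained peaks were somewhat shorter than the shared *ddm1* peaks, with a median of 938 bp (928 to 955) against 1077 bp (1045 to 1115). Gained peaks made up 81.4% (78.8 to 83.7) of the *ddm1* peaks of less than 800 bp and 48.3% (42.1 to 54.6) of those of 2000 bp or more, against 72.9% over all. Their median fold, however, was higher than that of the shared peaks, 2.50 (2.48 to 2.51) against 2.41 (2.38 to 2.43), and gained peaks took 80.5% of the 25% of *ddm1* peaks with the highest fold and 65.7% of the 25% with the lowest. By −log10 p the order was the other way, 68.0% in the strongest and 78.7% in the weakest 25%. In WT both measures pointed the same way: kept peaks had a higher fold than lost ones (2.32 and 2.10) and a higher −log10 p (4.25 and 3.73). Even among the 100 strongest *ddm1* peaks, 62 were gained.

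The longest gained peak was on chromosome 12 from 4194641 to 4198071 (3431 bp, fold 2.51), 67.5 kb from the nearest WT peak. The others were on chromosome 8 from 281859 to 284919 (3061 bp, 2.65), close to the chromosome end, and on chromosome 11 from 39709607 to 39712511 (2905 bp, 2.24). No WT peak of any of the 4 marks touched these 3 regions. Apart from H3K9me2 itself, only H3K27me1 did so in *ddm1*, over 347 bp of the first. The longest lost WT peak was on chromosome 6 from 7133915 to 7137510 (3596 bp, fold 2.27), and H3K27me1 covered 602 bp of it in WT and none in *ddm1*. The next was on chromosome 9 from 54974732 to 54978307 (3576 bp, 2.18), and H3K27me1 covered 459 bp of it in WT and 439 bp in *ddm1*. The third was on chromosome 2 from 3501356 to 3504783 (3428 bp, 2.10), with no H3K27me1 in WT and 303 bp in *ddm1*. There, *ddm1* H3K9me2 peaks under the minimum length still covered 1200 bp. Of the second, such short peaks covered 450 bp. After the tip of chromosome 1, the longest kept peaks were on chromosome 8 from 3216948 to 3220351 (3404 bp, fold 2.17) and on chromosome 9 from 65336027 to 65339365 (3339 bp, 2.50). In *ddm1*, H3K9me2 covered 2719 bp and 2204 bp of them.

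At the scale of 1 Mb, covered length was at least 2-fold lower in *ddm1* in 487 of 808 windows (60.3%) and at least 2-fold higher in 71 (8.79%). The lower ones had a median distance of 21.5 Mb from the chromosome end and the higher ones of 2.58 Mb. Of the 126 windows centred within 5 Mb of an end, 45 were at least 2-fold higher and 16 at least 2-fold lower. The higher windows had little coverage to begin with, with medians of 1.134 kb in WT and 5.195 kb in *ddm1*, so many of these rises rest on few peaks. In the lower windows the medians were 16.363 kb in WT and 3.56 kb in *ddm1*. Among chromosomes, the share of higher windows was largest on chromosome 3 (12 of 67) and that of lower windows on chromosome 10 (47 of 67). Over all windows, Spearman's rho between WT and *ddm1* coverage was 0.21 (808 windows, which share location and sequence content).

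Coverage fell the most in the window 18000001 to 19000000 of chromosome 5, in which 37 WT peaks over 40.8 kb met 3 *ddm1* peaks over 2.86 kb, and none of the WT peaks was kept. In the window 17000001 to 18000000 of chromosome 8, 29 WT peaks over 34.6 kb faced no *ddm1* peak of the minimum length. H3K9ac peaks covered 0.565 kb of the former window in WT and 21.4 kb in *ddm1*, and 0 and 42.8 kb of the latter. H3K27me3 peaks covered 25.01 kb of the former in WT and 24.96 and 94.5 kb in the *ddm1* replicates, and 0 kb of the latter in WT and 24.7 and 121 kb in the *ddm1* replicates. Coverage rose the most in the window 48000001 to 49000000 of chromosome 3, from 4 peaks over 5.78 kb to 15 peaks over 19.4 kb, 12 of them gained and 3 WT peaks kept. On chromosome 11 from 19000001 to 20000000 coverage went from 16.0 kb, already above the WT window median of 13.8 kb, to 28.4 kb, the highest of any *ddm1* window. Of its 26 *ddm1* peaks 20 were gained. These windows differed in their surroundings. The one on chromosome 3 held 136 kb of H3K9ac and 107 kb of H3K27me3 peaks in WT. In *ddm1* it held 110 kb of H3K9ac, and 29.8 and 38.5 kb of H3K27me3 in replicates 1 and 2. That on chromosome 11 held no peak of either mark in either genotype. The next largest rises were in windows starting at 58000001 on chromosome 3, 1 on chromosome 8 and 4000001 on chromosome 12. In WT these held 134, 125 and 72.4 kb of H3K9ac and 127, 156 and 64.7 kb of H3K27me3, so the window on chromosome 11 was the exception.

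Peaks shared by the genotypes were compared as 1014 pairs in which 1 WT peak overlapped 1 *ddm1* peak and no other. The widths of the pairs depended on the minimum length of the lists. The median log2 ratio of *ddm1* to WT width was −0.03 (−0.07 to 0.0028), with 533 pairs narrower, 479 wider and 2 equal in *ddm1*. With the lists as deposited, which let in *ddm1* peaks under 700 bp, it was −0.29 (−0.35 to −0.24). The pairs scattered widely, from −1.02 at the 10th to 0.79 at the 90th percentile. WT peaks of less than 1000 bp were mostly wider in *ddm1* (279 of 381) and those of 1500 bp or more mostly narrower (239 of 304). Sorting by the *ddm1* width gave the opposite pattern, with 344 of 441 *ddm1* peaks of less than 1000 bp narrower than their WT partner, so that each direction depended on the genotype used for sorting. Spearman's rho of the widths was 0.19 over the 1014 pairs. The extremes were a WT peak on chromosome 10 from 61137047 to 61140365, of 3319 bp, which met a *ddm1* peak of 833 bp, and 1 on chromosome 9 from 8894554 to 8895316, of 763 bp, which met 1 of 2966 bp.

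Enrichment was more closely related between the genotypes than width was, and the difference at the pairs was smaller than that between the whole lists. The rho of the folds was 0.60, between 0.47 and 0.71 on single chromosomes. The median fold was 2.33 in WT and 2.42 in *ddm1*, a median log2 ratio of 0.06 (0.05 to 0.08), and 668 of the 1014 pairs were higher in *ddm1* (65.9%, 62.9 to 68.7). The lists as a whole differed by 0.22 on this scale, however, and only 165 pairs exceeded that (16.3%, 14.1 to 18.7). The shared *ddm1* peaks had a slightly lower median fold than the whole *ddm1* list (2.41 and 2.47) and a slightly higher median −log10 p (4.26 and 4.14). The median log2 ratio of the folds was above 0 on 12 of 12 chromosomes, from 0.03 on chromosome 2 to 0.09 on chromosome 10. It was 0.07 (0.06 to 0.10) in the central and 0.06 (0.04 to 0.07) in the outer 50% of the chromosomes. Since the lists were not normalised to each other and only called peaks enter, these ratios describe the called sites and not the amount of H3K9me2.

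**Figure D5:**
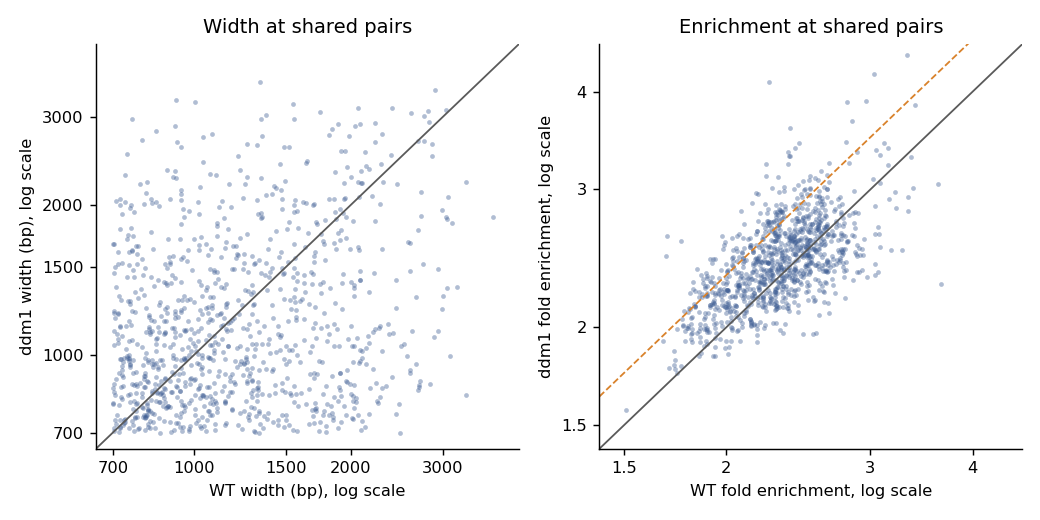
Width in bp (left) and fold enrichment (right) of the 1014 shared pairs in WT and *ddm1*, on log scales. The grey line marks equal values and the dashed orange line (right) the ratio of the median folds of all peaks: widths scatter around equality, and 165 pairs lie above the dashed line.

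The other marks differed between the classes. Lost peaks were 8677 of the 9767 WT peaks, so the shares of lost peaks lie near those of all WT peaks. The classes also differed in width, with medians of 1145.5 bp for kept, 957 bp for lost and 938 bp for gained peaks. The part that width, and the length covered by each list, had in these shares was not tested. In *ddm1*, H3K9ac peaks overlapped 16.9% (16.1 to 17.7) of the lost WT H3K9me2 peaks, 1.19% (0.698 to 2.03) of the kept and 0.889% (0.607 to 1.30) of the gained ones. In WT they overlapped none of the kept and lost peaks, so called peaks of both marks were apart there. Kept and gained peaks have an H3K9me2 call in *ddm1* by definition, and their low *ddm1* H3K9ac shares are therefore partly built in. The share of the chromosome span under *ddm1* H3K9ac was not set beside these values. H3K27me3 peaks overlapped 0.150% of the lost and 0.459% of the kept peaks in WT, and 2.67% (2.14 to 3.32) of the places of gained peaks. Those of *ddm1* replicate 1 overlapped 2.41% of the lost, 0.917% of the kept and 0.650% of the gained peaks. For replicate 2, whose list was deposited under a name of the other genotype, the shares were 16.3%, 4.68% and 4.27%. H3K27me1, the other constitutive mark, already overlapped more of the kept than of the lost peaks in WT, 14.1% (12.2 to 16.3) against 7.57% (7.03 to 8.15), and overlapped 5.20% (4.45 to 6.06) of the places of gained peaks. In *ddm1* it overlapped 22.6% (20.2 to 25.1) of the kept, 9.13% (8.54 to 9.75) of the lost and 12.8% (11.7 to 14.1) of the gained peaks. Its own lists, used as deposited with no common minimum length, moved the other way in length, to 1.56 times the WT length. Of its WT peaks 16.98% (16.1 to 17.9) were kept. The H3K9me2 lists as deposited gave a ratio of 0.593 and a kept share of 15.8% (15.1 to 16.5). The difference between the marks was not tested, since each rests on 1 list per genotype, and the H3K27me1 lists hold narrow peaks.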

How the data were processed

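H3K9me2 was profiled by chromatin immunoprecipitation and sequencing in WT and *ddm1* leaves. According to the methods and the submitters' processing notes, the authors trimmed reads with Trimmomatic (0.38) and aligned them to M82 V1.0 with Bowtie2 (2.3.5 in the notes, another version in the methods) permitting 1 mismatch. Peak calling used MACS3 (q-value threshold 0.05, extension size 150 bp). The deposited H3K9me2 lists have the broad layout, although the methods name broad calling for H3K27me3 alone. The control, any pooling of replicates and the origin of the unequal minimum lengths were not given in the sources used here. Per deposited peak there are a start and end, a fold (ratio) over local background, −log10 p, −log10 q and a score that follows from q, and broad lists give means over the region. Such values depend on depth, which was not known.

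Groups came from the labels. Peaks of 700 bp or longer on the 12 chromosomes were used. Overlap was at least 1 bp, covered length was that of merged peaks, and chromosome ends were the last peak end in any list. Named regions were the 3 longest peaks of each class, the 3 clusters with most peaks per genotype, the windows with the largest fall and rise, and the pairs with the largest change in width. The cluster on chromosome 9, the windows on chromosomes 8 and 11 and those with the next largest rises were chosen after their values were seen. Members and lists were chosen with earlier results of these data known. Shares have Wilson, differences Newcombe and medians order-statistic intervals (95%). Functions were tested on simulated peaks and checked against bedtools. Alternatives were the minimum length, q, equal list sizes, overlap rule, definition of the centre and cluster gap. Python 3.11.15, numpy 2.4.6, pandas 2.3.3 and scipy 1.17.1 were used.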

Additional observations from a re-analysis of the deposited data

How the results depend on the processing

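Without a common minimum length the ratio of covered lengths was 0.593, the kept share 15.8% (the same when only the *ddm1* minimum was lifted), the gained share 78.5%, the central difference −10.4 points, the gap ratio 1.16, the width ratio at pairs −0.29 (log2), and the cluster difference turned to 4.15 points. At 1000 bp or longer the kept share was 9.28%, the gained share 77.2% and the fold ratio at pairs 0.040 (log2). The cluster difference was then 0.377 points (−0.254 to 1.14), an interval that includes no difference. With only peaks of q up to 0.01, covered lengths had a ratio of 0.365, the kept share 8.26%, the gained share 77.0%, the central difference −18.8 points, the width ratio 0.029 (log2), and the cluster difference turned to 0.971 points. With equal numbers of peaks the ratio of covered lengths was 0.936, the kept share 17.3%, the gained share 82.4% and the central difference −10.6 points, the fold ratio was 0.029 (log2), and the gap ratio (0.907 against 2.28) and the cluster difference (2.29 against −2.00 points) turned. An overlap of 50% of the peak gave a kept share of 8.11% and a gained share of 79.2%, peaks within 500 bp gave 12.4% and 70.1%, and the WT midpoint rule gave 8.31% kept. A centre narrowed to the inner 33.3% gave −10.3 points. Joining clusters at 5 kb gave a difference of −0.00632 points and at 20 kb −8.90 points. The causes of these changes were not tested. The share of peaks in the centre was lower in *ddm1* in every alternative in which it was measured. Over the alternatives the kept share lay between 8.11% and 17.3% and the gained share between 70.1% and 82.4%. No paired analysis was possible because each genotype had 1 H3K9me2 list, and no replicate could be left out.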
